A study of Mus musculus with 3 samples.

Results

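The genes described here make cholesterol, control its supply, take it up and export it. There are 28 of them, listed by name in pathway order, with earlier results of these data known, and matched to array probes through RefSeq accessions. Probes counted as measured if the scanner software flagged them well above background in the same dye channel on all 3 arrays. A gene with several such probes was represented by the brightest. This left 27 of the 28 genes, out of 19344 genes and unnamed features tested, of which 13145 had a gene symbol. The missing gene was Soat1, which esterifies cholesterol for storage. Its single probe was well above background on 1 of 3 arrays in Ad-Lkb1 tissue and on 0 in wild type, so it was given no ratio. Each of the other 27 genes was well above background in both channels on all 3 arrays.

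The samples came from male mice, as whole brown adipose tissue, a fat depot that burns lipid to make heat. They were 10 weeks old and on regular chow. The Ad-Lkb1 mice (strain C57BL/6J in the labels) carry a deletion of LKB1, the kinase encoded by Stk11 that activates AMPK. Their controls were wild-type littermates (strain C57BL/6 in the labels). The promoter and cell type that drive the deletion are not given in the sources used here. The labels give 3 biological replicates of each genotype, hybridised in pairs to 3 arrays with 2 colours, Cy5 for Ad-Lkb1 and Cy3 for wild type on every array, so dye and genotype cannot be told apart, nor can strain name and genotype. Values below are log2 ratios of Ad-Lkb1 over wild type, where -1 means that the level was halved, or normalised log2 intensities of 1 sample.

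Cells build cholesterol from acetyl-CoA in the cytosol and endoplasmic reticulum. The mevalonate steps make isoprenoid units, these are joined into squalene, squalene is closed into lanosterol, and lanosterol is trimmed to cholesterol. The transcription factor SREBP-2, the product of Srebf2, switches on these enzymes when membrane sterol is low. Its escort SCAP carries it to the Golgi for activation, and the INSIG proteins hold SCAP back when sterol is plentiful. When sterol is in excess, the LXR receptors induce the exporters ABCA1 and ABCG1 and the ubiquitin ligase encoded by Mylip, which removes lipoprotein receptors from the cell surface.

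The median spot intensity was 51.0 to 53.5 in green against a background of 43.0 to 44.0, and 21.0 to 23.0 in red against 17.0, with 46.7% to 51.3% of features well above background in a channel. The small number of arrays, 3, limits the precision. The deleted gene, Stk11, had ratios of -1.26, -1.17 and -1.17 on arrays 1 to 3, a mean fall that passed the test (mean -1.20, SD 0.056, limma adjusted p = 0.0106). Of 8 brown adipocyte markers, all 8 were measured, 0 fell and 4 rose, among them the heat-producing Ucp1 (1.48). In such bulk tissue, fewer cells of a type and less RNA per cell cannot be told apart.

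Cholesterol synthesis genes were lower in Ad-Lkb1 brown fat at most steps of the pathway. Of the 27 measured genes, 12 fell, against a background of 3.91% of all features called lower by limma at an adjusted p under 0.05. One gene, the exporter Abcg1, rose, against a background of 4.78% called higher. In all, 756 features were lower and 924 higher. With median centring of each array in place of loess, the median of all features moved to -0.42, 9708 features were lower and 388 higher, and 25 of the 27 genes were lower and 1 higher. The 12 genes that fell with loess comprised 11 of the 18 synthesis enzymes and Insig1. The median log2 ratio of the 18 enzymes was -0.90, against -0.0097 for all features tested. On single arrays that median was -1.02, -0.51 and -1.03. Every one of the 18 enzymes had a mean ratio below 0, and 17 of them were below 0 on all 3 arrays, as were 27.7% of all features. The exception was Ebp. The levels of the 3 wild-type and 3 Ad-Lkb1 samples did not overlap for 16 of the 18 enzymes, as for 36.5% of all features.

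**Figure D1:**
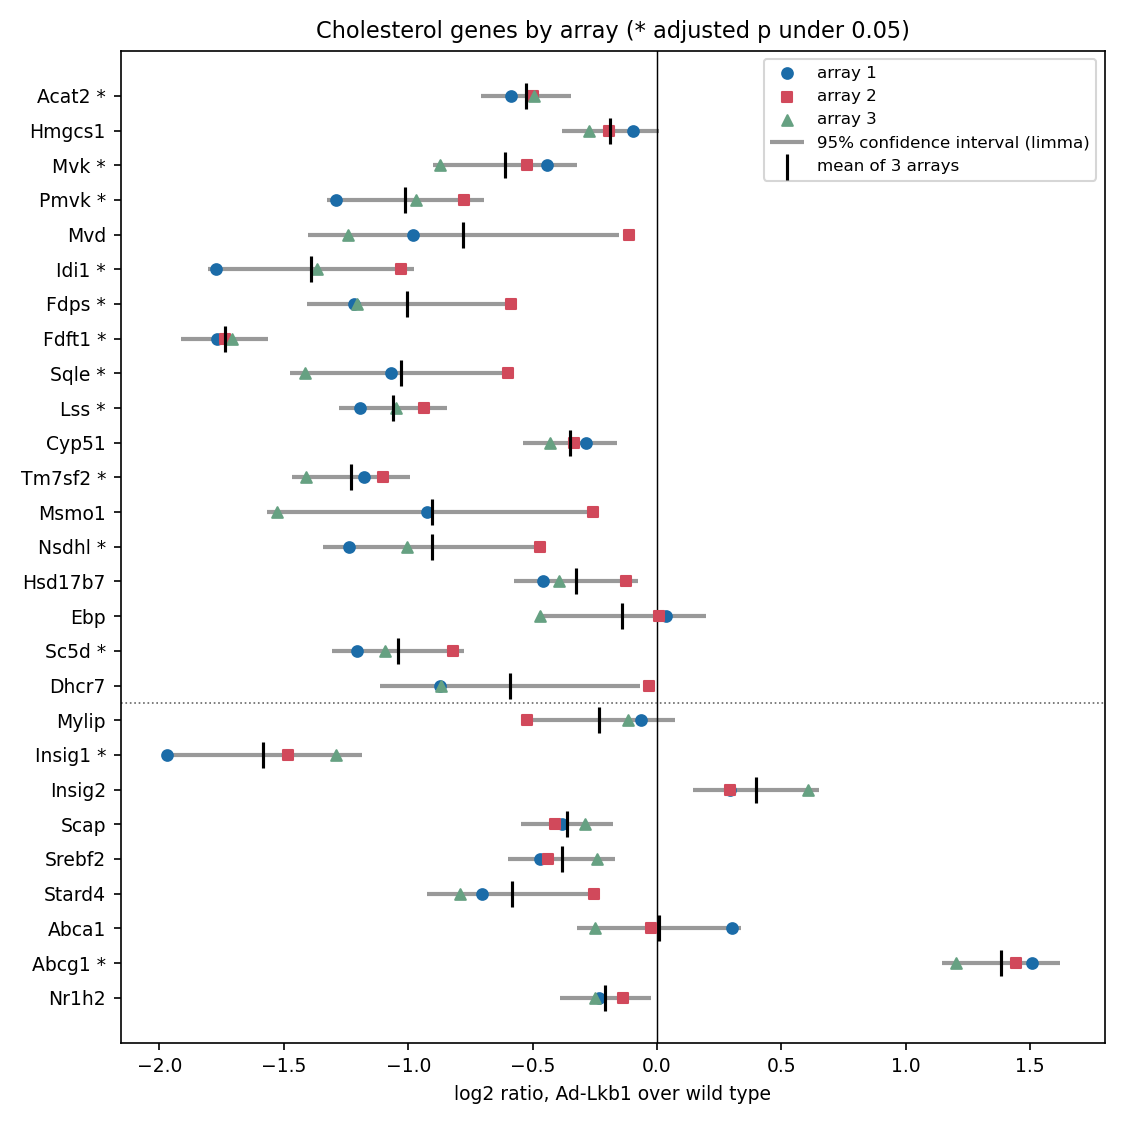
Log2 ratios of Ad-Lkb1 over wild type (x axis) for the 27 measured cholesterol genes in the order described (y axis, synthesis enzymes above the dotted line). Circles, squares and triangles are arrays 1, 2 and 3, vertical ticks their mean, grey bars the 95% confidence interval of the moderated fit, and asterisks mark an adjusted p under 0.05. Fdft1 has the lowest mean (-1.74) and Abcg1 the highest (1.38), and squares often lie nearest to 0 among the synthesis enzymes.

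The mevalonate steps held 7 measured genes, of which 5 fell. Idi1, which turns the basic isoprenoid unit into its reactive isomer, had levels of 10.89, 10.42 and 10.45 in wild type and 9.11, 9.39 and 9.08 in Ad-Lkb1 tissue. All 3 Ad-Lkb1 samples lay below all 3 wild-type samples by about 1 log2 unit or more. It fell by 1.39 (SD 0.37, n = 3, limma adjusted p = 0.0229), a level 2.62-fold higher in wild type, which was the 39th lowest of all 19344 ratios. Pmvk, the second of the mevalonate kinases, fell by 1.01 (-1.29, -0.78 and -0.97 on arrays 1 to 3, adjusted p = 0.0238). Its other kept probe gave -1.12. Fdps, which makes farnesyl diphosphate, the branch point to sterols and other isoprenoids, fell by 1.00 (-1.22, -0.59 and -1.21, adjusted p = 0.0345).

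Of the other 4 mevalonate genes, 2 fell. Acat2, the cytosolic thiolase that joins 2 acetyl-CoA units, fell by 0.53 (-0.59, -0.50 and -0.50 on arrays 1 to 3, limma adjusted p = 0.0269). Mvk, the first mevalonate kinase, fell by 0.61 (-0.44, -0.52 and -0.87, adjusted p = 0.0448), and its other kept probe had -0.55. Hmgcs1, the synthase that makes HMG-CoA, did not pass the threshold. Its levels were 12.80, 12.81 and 13.01 in wild type and 12.71, 12.62 and 12.74 in Ad-Lkb1 tissue, which do not overlap but lie close together. Its ratio was -0.19 (95% confidence interval -0.38 to 0.0062, adjusted p = 0.181), so with this processing a fall beyond 0.38 lies outside the interval. With median centring it had -0.89, which passed the threshold (adjusted p = 0.00964). Under that setting the median of all features was -0.42 and 9708 of 19344 were lower. Mvd, which completes the isoprenoid unit, had ratios of -0.98, -0.11 and -1.24 and a mean of -0.78, not past the threshold (adjusted p = 0.117).

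The steps from farnesyl diphosphate to lanosterol held 3 genes, and all 3 fell. Fdft1, squalene synthase and the first enzyme committed to sterols, had levels of 10.91, 10.74 and 10.74 in wild type and 9.14, 9.01 and 9.03 in Ad-Lkb1 tissue. The 3 samples of each genotype lay close together and the genotypes far apart. It fell by 1.74 (SD 0.029, SE 0.066, n = 3, adjusted p = 0.0106), a level 3.33-fold higher in wild type. This was the 14th lowest ratio and the 4th smallest p of all features tested. A second probe for the same transcript accession was too dim to count as measured, being well above background on 1 of 3 arrays in each channel, and had a ratio of -0.055. Sqle, which oxidises squalene, fell by 1.03 (-1.07, -0.60 and -1.41, adjusted p = 0.0398). Lss, which closes the ring to lanosterol, fell by 1.06 (-1.19, -0.94 and -1.05, adjusted p = 0.0126).

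Of the 8 measured genes between lanosterol and cholesterol, 3 fell. Tm7sf2, a sterol reductase, had levels of 9.31, 9.07 and 9.42 in wild type and 8.13, 7.96 and 8.01 in Ad-Lkb1 tissue, with every wild-type sample above every Ad-Lkb1 sample. It fell by 1.23 (SD 0.16, n = 3, limma adjusted p = 0.0123), and its dimmer second probe had -0.74. Sc5d, which adds a double bond to the sterol ring, fell by 1.04 (-1.21, -0.82 and -1.09, adjusted p = 0.0176). Nsdhl, a dehydrogenase that helps to remove methyl groups, fell by 0.90 (-1.24, -0.47 and -1.01, adjusted p = 0.0467), and its dimmer second probe had -0.47.

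The other 5 genes of this stretch did not pass the threshold. Msmo1, the methyl sterol oxidase, had ratios of -0.92, -0.26 and -1.53 (mean -0.90, adjusted p = 0.101). Dhcr7, the reductase of the final step, had -0.87, -0.031 and -0.87 (mean -0.59, adjusted p = 0.137). Both were well below 0 on arrays 1 and 3 and nearer to 0 on array 2. Cyp51, the first demethylase after lanosterol, had a mean of -0.35 (-0.29, -0.33 and -0.43, adjusted p = 0.0561). Hsd17b7, a keto reductase, had a mean of -0.33 (adjusted p = 0.107). Ebp, an isomerase, had ratios of 0.036, 0.0097 and -0.47, and the levels of its genotypes overlapped (mean -0.14, interval -0.48 to 0.20, adjusted p = 0.525). Among these, Cyp51, Hsd17b7 and Dhcr7 had dim probes, whose ratios the offset of 50 added to each intensity draws toward 0. In the deposited value table, which has no such offset, Dhcr7 had a log2 ratio of -1.20, and with the scanner software's processed signals Cyp51 had -1.11 and Hsd17b7 -0.74, none past the threshold. With an offset of 10, Cyp51 had -0.61 and passed it (adjusted p = 0.0445), as it did without background subtraction (-0.57, adjusted p = 0.0466), while Dhcr7 (-0.85 with an offset of 10) and Hsd17b7 (-0.50) did not. With median centring all 3 passed it, at -0.62 for Cyp51, -0.66 for Hsd17b7 and -0.97 for Dhcr7. Under that setting the median of all features was -0.42 and 9708 of 19344 were lower.

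Most of the 18 enzymes varied more among the wild-type samples than among the Ad-Lkb1 samples. Over these enzymes, the median SD between samples was 0.24 in wild type and 0.12 in Ad-Lkb1 tissue, and 13 of the 18 varied more in wild type. Over all features the median SD was 0.11 in wild type and 0.095 in Ad-Lkb1 tissue, and 58.8% varied more in wild type, so the dye channels differed the same way beyond these enzymes. The offset also narrows the spread of dim levels, and its part in this difference was not tested. The wild-type sample of array 2 was the lowest of the 3 wild-type samples for 12 enzymes, with a median deviation of -0.15 from the wild-type mean, and that of array 1 was the highest for 11, with a median deviation of 0.22. Over all features these medians were -0.0066 and 0.01. Mvd had levels of 8.40, 7.59 and 8.50 in wild type against 7.42, 7.48 and 7.25 in Ad-Lkb1 tissue, and Dhcr7 had 7.69, 6.83 and 7.63 against 6.82, 6.80 and 6.76. For both genes the wild-type sample of array 2 lay close to the Ad-Lkb1 samples and the other wild-type samples did not. Among the Ad-Lkb1 samples, that of array 3 was the lowest for 13 of the 18 enzymes (median deviation -0.13). Without array 2 the median ratio of the 18 enzymes was -1.12, and without array 3 it was -0.71.

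**Figure D2:**
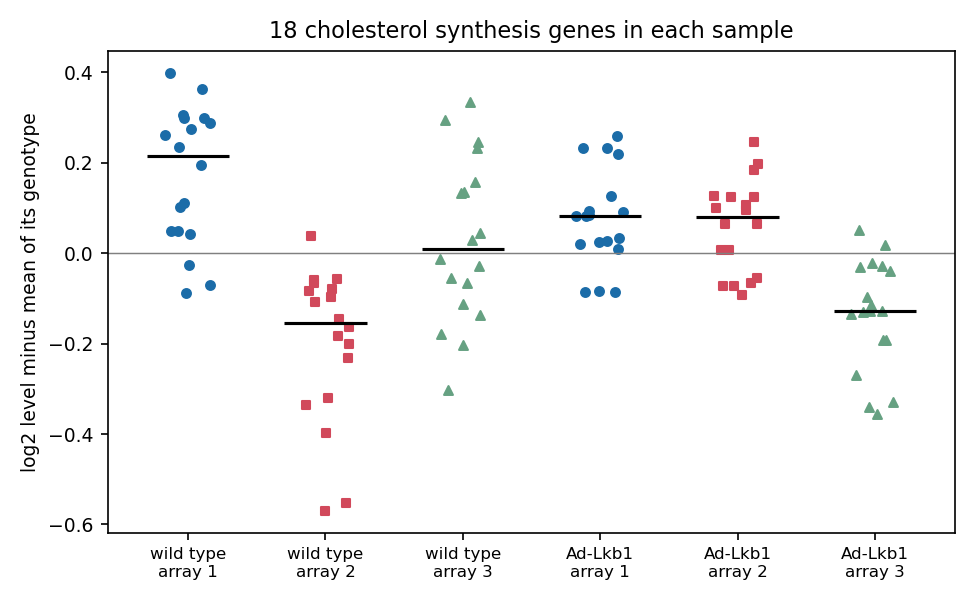
Deviation of each sample's log2 level from the mean of its genotype (y axis) for the 18 synthesis enzymes, 1 point per gene, by sample (x axis); horizontal lines are medians. The wild-type sample of array 2 has a median of -0.15 and reaches down to -0.57, while that of array 1 has a median of 0.22.

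Across the 27 genes, ratios correlated between arrays 1 and 2 with Pearson's r = 0.88, between 1 and 3 with r = 0.91 and between 2 and 3 with r = 0.79. Over all 19344 features the same values were 0.73, 0.36 and 0.50. These are correlations across genes, which share the arrays and are not independent replicates, and are given as a description.

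Of SREBP-2 and its 3 measured controllers, 1 gene fell and 3 did not pass the threshold. Insig1, a target of SREBP-2 that also restrains it, had levels of 9.83, 9.61 and 9.60 in wild type and 7.86, 8.13 and 8.31 in Ad-Lkb1 tissue. It fell by 1.58 (SD 0.35, n = 3, limma adjusted p = 0.0169), a level 2.99-fold higher in wild type and the 26th lowest ratio of all. Insig2, its relative with the same restraining role, had levels of 9.77, 9.64 and 9.48 in wild type and 10.06, 9.94 and 10.08 in Ad-Lkb1 tissue. Each of its Ad-Lkb1 samples was above each wild-type sample, but the ratio of 0.40 did not pass the threshold (interval 0.15 to 0.65, adjusted p = 0.0761). The other kept probe of Insig2, for another transcript accession, had -0.26, 0.015 and 0.13. Median centring of the arrays in place of loess gave Insig2 a ratio of -0.30, where the median of all features was -0.42.

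The 2 remaining genes of this group had small ratios below 0. Srebf2 had -0.47, -0.44 and -0.24 (mean -0.38, limma adjusted p = 0.0600), but its dimmer second probe had 0.28, 0.56 and 0.086, so the probes disagree in sign. Scap had -0.38, -0.41 and -0.29 (mean -0.36, adjusted p = 0.0513). Srebf2 reached -1.02 in the deposited value table and -0.038 as the mean of its probes, so its value depends on the probe and the signal used. Scap ranged from -1.07 with median centring to -0.31 without background subtraction. Under 9 other ways of processing all 3 arrays, Scap passed the threshold in 4 and Srebf2 in 3. Among these was Srebf2 without background subtraction (-0.60, limma adjusted p = 0.0443).

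**Figure D3:**
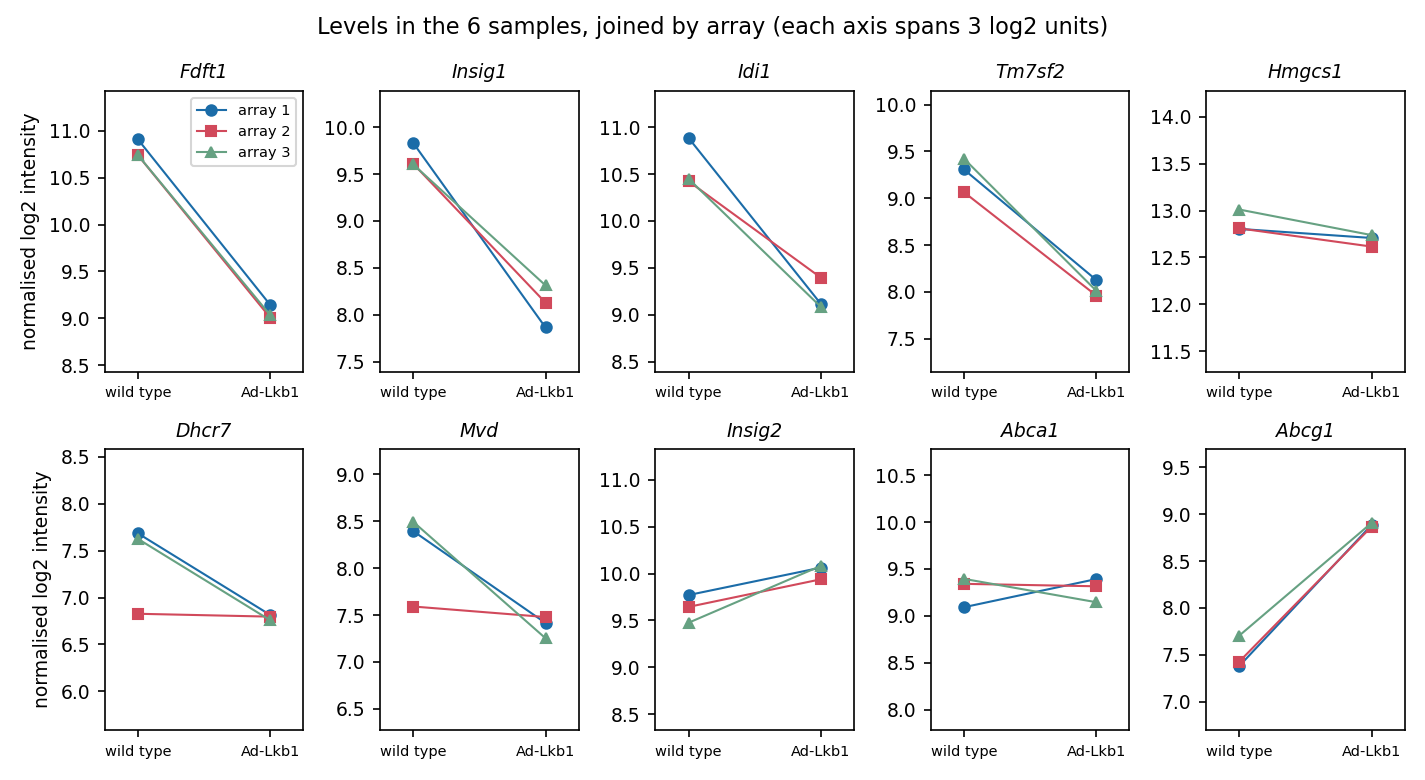
Normalised log2 intensity (y axis, 3 log2 units in each panel) of 10 cholesterol genes in the wild-type and Ad-Lkb1 sample (x axis) of each array, joined by a line; circles, squares and triangles are arrays 1, 2 and 3. Fdft1, Insig1, Idi1 and Tm7sf2 are lower on each array, Abcg1 is higher on each array, and the wild-type level of Dhcr7 and Mvd on array 2 lies near the Ad-Lkb1 levels.

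Of the 5 measured genes of uptake, transfer and export, 1 rose and 0 fell. Abcg1, which loads cholesterol onto high-density lipoprotein, had levels of 7.38, 7.43 and 7.71 in wild type and 8.89, 8.87 and 8.91 in Ad-Lkb1 tissue. The 3 Ad-Lkb1 samples were nearly equal and all above wild type. It rose by 1.38 (SD 0.16, n = 3, limma adjusted p = 0.0113), which is 2.61-fold. Abca1, the exporter to lipid-poor apolipoprotein A-I, had 9.09, 9.34 and 9.39 in wild type and 9.39, 9.32 and 9.15 in Ad-Lkb1 tissue. These levels overlap, and its ratio was 0.0084 (interval -0.32 to 0.34, adjusted p = 0.976), so with this processing a change beyond 0.34 in either direction lies outside the interval. With median centring it had -0.67, which passed the threshold (adjusted p = 0.0111). Under that setting the median of all features was -0.42 and 9708 of 19344 were lower.

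Macrophages export cholesterol through both transporters, and macrophage markers were higher in the same samples. Of 10 such markers, 8 rose and 0 fell, with medians of 2.32, 2.42 and 1.22 on arrays 1 to 3. Their summed normalised intensity was 2751 to 4931 in wild type and 10761 to 13290 in Ad-Lkb1 tissue. None was absent in Ad-Lkb1 tissue, and in wild type Gpnmb was well above background on 2 of 3 arrays and the others on all 3. Abcg1 had 1.51, 1.44 and 1.20 on these arrays and Abca1 0.30, -0.026 and -0.25. The part of macrophage RNA in these values was not tested. Of 8 mature adipocyte markers, 1 rose and 0 fell (median -0.023), and their summed intensity was 179270 to 212740 in wild type and 243000 to 258920 in Ad-Lkb1 tissue. This sum gives most weight to bright genes such as Fabp4 (0.48, not past the threshold) and Lpl (1.19, the marker that rose). Of the 8 markers, 4 had mean ratios below 0, 3 of these on all 3 arrays, and 2 were above 0 on all 3 arrays. Of 5 fibroblast markers, 4 rose and 0 fell, and of 5 endothelial markers, 1 rose and 1 fell.

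The remaining transport genes had ratios below 0 that did not pass the threshold. Stard4, which carries cholesterol between membranes and is a target of SREBP-2, had -0.70, -0.25 and -0.79 (mean -0.58, adjusted p = 0.0657 by limma). Its levels did not overlap between genotypes, and with the software's processed signals its ratio was -1.29. Mylip had -0.064, -0.52 and -0.12 (mean -0.23, adjusted p = 0.267), with a second probe at -0.15. Nr1h2, which encodes LXR-beta, had -0.24, -0.14 and -0.25 (mean -0.21, adjusted p = 0.137), and its levels overlapped. The median of the 5 measured transport and efflux genes was -0.21.

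Because many synthesis genes were lower together, their promoters were searched for short letter patterns in RefSeq sequence of build GRCm38.p6. Each promoter spans 250 bases before to 50 bases after a gene's start. The table held 1 or more promoters for 23 of the 28 genes, and 15 of the 18 enzymes. Fdps, Fdft1 and Sqle, which all fell, had no entry, nor had Stard4 and Abcg1. CCAAT, the box bound by NF-Y, a partner of SREBP, was present on either strand in 19 of the 23 genes and in 14 of the 15 enzymes, against 41.1% of all 27025 genes in the table (37.4% of 32851 promoters). It was held by 7 of the 8 enzymes that fell and had an entry, and by 7 of the 7 that did not pass the threshold. In these counts by gene, a gene with several promoters counted if any of them held the pattern. Pmvk, Dhcr7 and Insig2 held CCAAT in 1 promoter each and also had a promoter without it. TCACNCCAC, a form of the sterol regulatory element bound by SREBP, was found in 1 of the 23 genes, Hmgcs1, against 1.44% of all genes (1.24% of promoters). The shorter TCACNCCA, which the longer form contains and which can share 3 letters with CCAAT, was found in Hmgcs1, Msmo1 and Srebf2, against 4.97% of all genes (4.36% of promoters). The E-box CACGTG was found in 6 of the 23 genes, against 8.09% (7.15% of promoters), and the DR4 element of LXR in 0 of the 23, against 0.27% (0.231% of promoters). The table includes genes that code for no protein, and a match is a description of letters only.

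The 200 bases before the start are shown for the 3 genes with the sterol regulatory pattern, none of which passed the threshold, and for Idi1 and Lss, which fell and held the CCAAT box without that pattern. Capitals mark TCACNCCAC or TCACNCCA and the CCAAT box, which reads ATTGG on the opposite strand. Each is written 5′ to 3′ on the gene's strand.
Hmgcs1, chr13:119690151-119690350, plus strand: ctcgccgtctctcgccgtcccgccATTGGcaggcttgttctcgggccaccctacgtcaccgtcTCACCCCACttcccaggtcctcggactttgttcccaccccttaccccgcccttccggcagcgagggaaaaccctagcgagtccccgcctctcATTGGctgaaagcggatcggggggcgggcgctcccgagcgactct
Msmo1, chr8:64733579-64733778, minus strand: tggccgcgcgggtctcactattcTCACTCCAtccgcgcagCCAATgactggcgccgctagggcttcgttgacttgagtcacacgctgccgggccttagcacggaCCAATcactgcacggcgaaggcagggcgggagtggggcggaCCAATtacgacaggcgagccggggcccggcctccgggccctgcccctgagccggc
Srebf2, chr15:82147069-82147268, plus strand: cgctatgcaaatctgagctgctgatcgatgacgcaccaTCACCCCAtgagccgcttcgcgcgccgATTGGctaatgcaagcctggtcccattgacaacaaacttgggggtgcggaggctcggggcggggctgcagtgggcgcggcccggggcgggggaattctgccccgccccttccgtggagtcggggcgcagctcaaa
Idi1, chr13:8885406-8885605, plus strand: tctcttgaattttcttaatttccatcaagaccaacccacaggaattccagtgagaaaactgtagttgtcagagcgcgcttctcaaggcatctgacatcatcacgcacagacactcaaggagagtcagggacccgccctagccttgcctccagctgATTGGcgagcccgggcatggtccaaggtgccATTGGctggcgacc
Lss, chr10:76531405-76531604, plus strand: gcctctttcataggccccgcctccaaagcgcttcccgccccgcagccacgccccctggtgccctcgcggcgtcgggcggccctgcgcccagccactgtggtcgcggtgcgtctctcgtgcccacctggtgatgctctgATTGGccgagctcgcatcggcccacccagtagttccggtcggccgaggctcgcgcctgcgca
Hmgcs1 held the longer pattern 137 bases before its start and had a ratio of -0.19. Msmo1 and Srebf2 held the shorter pattern 177 and 162 bases before their starts and had ratios of -0.90 and -0.38. Idi1 held the CCAAT box at 45 and 14 bases before its start and had a ratio of -1.39. Lss held it at 62 bases and had a ratio of -1.06. Whether the ratios go with either pattern was not tested.

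Other genes around cholesterol, were listed by role and are not among the 28. Of 9 measured genes of the isoprenoid branch, which uses the same precursors for other products, 0 rose and 0 fell (median -0.042), and the smallest p-values belonged to Coq2 (0.30), Fnta (-0.17) and Nus1 (-0.15). Of 8 measured genes that process SREBP or degrade sterol-regulated proteins, 0 passed the threshold (median -0.14), with Erlin2 at -0.43, Mbtps1 at -0.29 and Rnf139 at -0.20. Of 7 measured genes of lipoprotein uptake and lysosomal release, 2 fell. These were the lipoprotein receptor Vldlr (-1.05, limma adjusted p = 0.0236) and Npc2, which hands cholesterol out of the lysosome (-1.01, adjusted p = 0.0247), while the lysosomal lipase Lipa had -0.18. Of 10 sterol transfer proteins, 2 fell, Osbpl1a (-0.56) and Osbpl5 (-0.43), and Gramd1c had -0.79 (adjusted p = 0.0520).

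Of 10 genes of efflux, LXR response and oxysterols, 3 rose and 1 fell. Nceh1, which frees cholesterol from its esters, rose by 1.30 (1.17, 1.40 and 1.32 on the arrays, limma adjusted p = 0.0108), and Pltp, the phospholipid transfer protein, by 0.76 (adjusted p = 0.0303). The third was Apoe (1.02), named after its value was seen. Macrophages express these genes too, and the macrophage markers, of which 8 of 10 rose (median 2.03), were higher in the same samples. Their part in these values was not tested. Lpcat3, which remodels phospholipids and is known as an LXR target, fell by 0.97 (adjusted p = 0.0151). For comparison, 9 of 13 measured genes of fatty acid synthesis fell and 0 rose, with a median of -0.85, of which Fasn (-1.40), Acacb (-1.37) and Acss2 (-1.70) had the smallest p. Whether that list differs from the cholesterol enzymes was not tested.

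**Figure D4:**
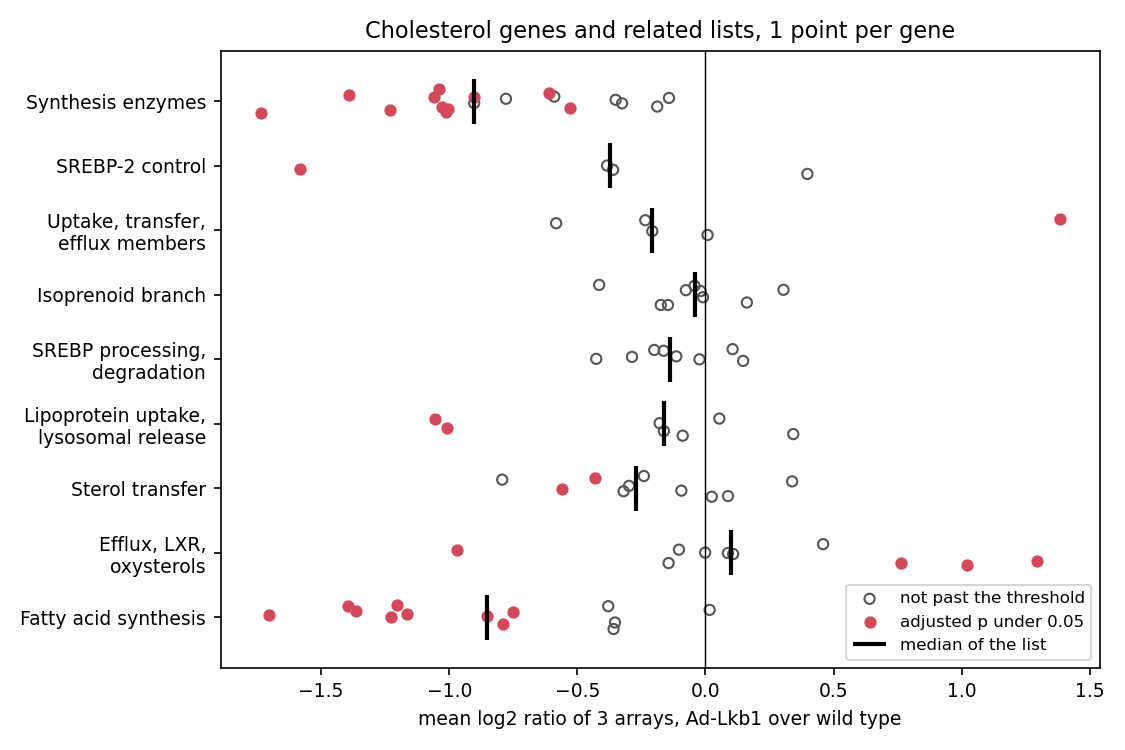
Mean log2 ratio of 3 arrays (x axis) of each measured gene, 1 point per gene, in the cholesterol groups and the related lists (y axis); filled points have an adjusted p under 0.05 and vertical bars are medians. The synthesis enzymes (median -0.90) and fatty acid synthesis genes (-0.85) lie left of 0, and the isoprenoid branch (-0.042) lies around it.

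Without array 1 or without array 2, limma called 0 of all features at an adjusted p under 0.05, with 3934 and 3564 at an unadjusted p under 0.05. At an unadjusted p under 0.05, 12 and 16 of the 18 enzymes were then lower. Without array 3 limma called 10 of the 27 genes lower and 1 higher, with 718 of all features lower and 1332 higher. With the scanner software's processed signals in place of normexp and loess, 6 of the 27 were called lower and 1 higher. Of all features, 283 were then lower and 532 higher.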

How the data were processed

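The deposited scanner files hold raw median intensity per spot and local background in both dyes, and processed intensity that the scanner software background-subtracted and dye-normalized, per the file headers (Agilent Feature Extraction 11.5, per the submitters' processing notes). The deposited value table is a log10 ratio. It matched the log10 of Cy5 over Cy3 processed intensity on each array (largest difference 0.00671, correlation at least 0.999994 where not 0) and is 0 on 26.8% to 27.8% of features. Flag columns (other values) were used as given in the deposited files.

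The raw intensities were turned into log2 ratios with limma 3.58.1 (R 4.3.3), using normexp background correction (offset 50) and loess per array (control spots weighted 0). Control spots, outlier spots and incomplete rows were left out, and spots of a probe averaged, which left 25048 kept of 55681 probes. Symbols came from RefSeq (GRCm38.p6) by unversioned accession. The arrays are annotated on another build, so the only coordinates given are those of the RefSeq promoters, in GRCm38.p6.

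limma's lmFit and eBayes tested whether each mean ratio differed from 0, with Benjamini-Hochberg adjustment over all 19344 features and a threshold of 0.05. Levels per sample were taken after Aquantile normalization. SD is between arrays and SE is moderated. The labels call the samples of a genotype biological replicates. The procedure was tested on made-up intensities. The text names all 28 genes, with Stk11, the listed markers and the 3 genes of smallest p in each related list. Members, lists and tests were chosen with earlier results of these data known. A planned comparison of protein sequences was not made.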

Additional observations from a re-analysis of the deposited data

How the results depend on the processing

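Over the 9 alternatives that use all 3 arrays, 243 values of single cholesterol genes were computed, of which 199 stayed on their side of the threshold, 23 newly passed it, 20 no longer passed it and 1 reversed (Abca1, -0.67 with median centring). Insig2 also changed sign with median centring (-0.30) without passing the threshold. Fdft1, Lss, Tm7sf2, Sc5d, Insig1 and Abcg1 passed the threshold under all 9. Median centring gave 25 genes lower, 18 enzymes lower and medians of -1.58 for the enzymes and -0.84 for transport and efflux genes. Of all features, 9708 were then lower, and their median was -0.42. Relative to all features, the enzyme median was then -1.16. The software's processed signals gave 6 genes and 5 enzymes lower, as did the deposited value table (6 and 5), with 283 of all features lower and 532 higher. An offset of 10 gave 525 lower and 1056 higher. Without a filter on dim probes 6 enzymes were lower, with 492 of 36799 features lower and 541 higher. The median of transport and efflux genes, Soat1 included, was then -0.10. The cause of these shifts was not tested. Leaving out 1 array in turn gave 0 to 10 genes lower, 0 to 1 higher and 0 to 9 enzymes lower. Of all features, 0 to 718 were lower and 0 to 1332 higher. The enzyme median was then -1.12 to -0.71, that of transport and efflux genes -0.19 to -0.091, and Stk11 -1.22 to -1.17.

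Array and pair are the same thing in these ratios. Deviations of the paired samples from their genotype means correlated with r = -0.13, 0.079 and -0.14 on arrays 1 to 3, across features. A fit with no replicate block, on levels per sample, called 1392 of all features lower and 1586 higher. Of the cholesterol genes, 17 were then lower, 13 of them enzymes. It called 2 of them higher, the second being Insig2 (limma adjusted p = 0.0345). An offset of 10, no background subtraction, the mean of a gene's probes and scale normalization between arrays gave 11, 13, 13 and 12 genes lower. Of all features, they called 525, 558, 732 and 763 lower. Dim probes limit Cyp51, Hsd17b7, Dhcr7, Srebf2 and Stard4.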
